A study of Mus musculus with 36 samples.

Results

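The 40 genes described here drive or mark the cell division cycle: G1 cyclins and E2F1, replication licensing factors, enzymes that supply nucleotides for DNA, mitotic cyclins and kinases, spindle checkpoint proteins, and proteins of the chromosomes and spindle. They were taken from a fixed list of symbols, matched to 40 of the 53715 gene identifiers in the deposited count table, and followed across 36 livers. The livers came from male C57BL/6 mice aged 10 weeks, 12 per diet, although the labels give 11-12 mice per group. From 4 weeks of age and for 6 weeks, 12 mice ate the purified AIN93G diet (control), 12 ate a diet with 10% red tomato powder (red) and 12 ate a diet with 10% tangerine tomato powder (tangerine). All groups shared strain, sex, age and tissue, and the labels name no other genotype or agent. Each library is named by its diet and mouse number, and different numbers were taken as different mice.

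Cells that divide pass from G1 through DNA synthesis into mitosis. Cyclin D and cyclin E with their kinases release E2F factors, which switch on replication genes, and later the cyclin A and cyclin B kinases, FOXM1 and the MuvB complexes switch on the genes of mitosis. Hepatocytes of an adult liver rarely divide, and the transcripts of mitosis are therefore scarce in it, whereas proliferating lymphocytes, blood cell precursors and regenerating liver hold many.

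Library totals ranged from 21290169 to 33810573 counts, and the 7 hepatocyte markers summed to between 91889 and 130562 CPM (counts that edgeR scaled to a common library size) in the 34 libraries other than red 186 and tangerine 192, and to 97247 and 100849 CPM in those. These 2 libraries stood apart from the rest in the cell cycle genes, so the main differences between diets are given with and without them. At these depths most members were scarce. A count filter that 14068 of all genes passed kept 29 of the 40 members, and only those were tested between diets. The 11 others were Ccnb1, Cdc6, Bub1, Aurkb, Plk1, Tk1, Kif11, Prc1, Cenpf, Cenpe and Hmmr. Tk1, the cytosolic thymidine kinase, and Prc1, a spindle midzone protein, had a count of 0 in all 36 libraries. So did B2m and Rpl35, which nearly every cell expresses, so a 0 throughout was not read as absence, and its cause was not tested. Counts below are therefore out of 38 members where untested members are included.

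Per kilobase of exon, Pcna, the sliding clamp of the replication fork, was the most abundant member, at a median of 4.44 CPM per kilobase over the 36 libraries. Ccnd1 (cyclin D1) followed at 3.62 CPM per kilobase, then Rrm2, the small subunit of ribonucleotide reductase, at 2.46, and the replicative helicase subunits Mcm7 at 2.04 and Mcm3 at 1.07. Of the mitotic genes Aurka was the highest, at 0.755 CPM per kilobase, above Mcm6 at 0.631, and the next was Cdca3, a regulator of mitotic entry, at 0.455. Foxm1, Tpx2 (an activator of Aurora A on the spindle) and Ccna2 (cyclin A2) had the lowest levels per kilobase among the tested members, at 0.0754, 0.0849 and 0.0974 CPM per kilobase.

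The promoters of these genes are shown because many members were high together in 1 library, as described further on. Cell cycle homology region (CHR) elements are bound by MuvB complexes and neighbouring CCAAT boxes by NF-Y at genes of mitosis, and E2F sites occur at genes of DNA synthesis. RefSeq promoters (GRCm38.p6, 250 bases before to 50 after the start site) were found for 32 members, as 34 promoters. The CHR letters TTTGAA or TTCGAA, searched on both strands, occurred in 18 of these 34 (52.9%) and in 19.2% of all 32851 promoters in the table. CCAAT occurred in 27 (79.4%) against 37.4% of all promoters, and any of the E2F letters TTGGCGC or TTCCCGC or TTGCCGC or TTCGCGC in 12 (35.3%) against 9.57%. By role, the CHR letters were in 8 of 11 promoters of chromosome and spindle genes, 4 of 5 of mitotic entry genes and 4 of 4 of the spindle checkpoint group (which also holds Cdca3), but in 2 of 8 of licensing and fork genes and 0 of 4 of nucleotide supply genes. The E2F letters were in 6 of the 8 licensing and fork promoters. A match of letters is a description of sequence and not a binding site.

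Below is 1 promoter for each of 5 roles, each from the tested member of that role with a promoter in the table and the largest ratio of library red 186 to the median of the other libraries, with the matches to CHR, CCAAT and E2F letters on either strand in capitals (TTCAAA and ATTGG and GCGCGAA and GCGGCAA are reverse complements). E2F matches on the 2 strands overlap in runs where both are capitalised. For the G1 genes that member was E2f1, whose window held none of these letters and is not printed. No other start site of E2f1 was searched, so this does not show that the gene's promoter lacks the letters.
Top2a, chr11:99024140-99024439, minus strand: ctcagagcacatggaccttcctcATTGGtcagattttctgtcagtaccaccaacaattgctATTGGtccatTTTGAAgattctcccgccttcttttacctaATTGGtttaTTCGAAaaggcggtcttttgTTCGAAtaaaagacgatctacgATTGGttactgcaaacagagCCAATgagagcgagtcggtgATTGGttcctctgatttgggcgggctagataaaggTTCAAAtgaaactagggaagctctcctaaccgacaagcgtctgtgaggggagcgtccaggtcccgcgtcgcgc
Ccnb2, chr9:70421505-70421804, minus strand: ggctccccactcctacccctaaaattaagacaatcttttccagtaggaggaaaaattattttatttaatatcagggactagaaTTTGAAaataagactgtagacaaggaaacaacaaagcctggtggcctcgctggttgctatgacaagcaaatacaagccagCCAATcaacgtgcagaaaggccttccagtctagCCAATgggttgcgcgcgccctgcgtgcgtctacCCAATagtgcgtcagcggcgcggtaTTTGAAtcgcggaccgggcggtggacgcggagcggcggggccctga
Bub1b, chr2:118597961-118598260, plus strand: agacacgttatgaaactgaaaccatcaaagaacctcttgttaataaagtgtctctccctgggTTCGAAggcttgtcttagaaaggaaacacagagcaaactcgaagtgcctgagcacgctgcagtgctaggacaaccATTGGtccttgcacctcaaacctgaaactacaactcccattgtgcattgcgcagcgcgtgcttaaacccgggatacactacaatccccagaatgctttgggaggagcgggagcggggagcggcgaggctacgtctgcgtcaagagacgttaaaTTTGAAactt
Mcm6, chr1:128359656-128359955, minus strand: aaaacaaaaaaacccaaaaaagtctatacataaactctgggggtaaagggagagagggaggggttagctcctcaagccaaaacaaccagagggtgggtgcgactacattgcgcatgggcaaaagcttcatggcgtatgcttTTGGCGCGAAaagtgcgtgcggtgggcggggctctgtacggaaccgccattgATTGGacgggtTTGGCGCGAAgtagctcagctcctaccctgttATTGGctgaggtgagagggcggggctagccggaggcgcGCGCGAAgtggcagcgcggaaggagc
Rrm2, chr12:24708004-24708303, plus strand: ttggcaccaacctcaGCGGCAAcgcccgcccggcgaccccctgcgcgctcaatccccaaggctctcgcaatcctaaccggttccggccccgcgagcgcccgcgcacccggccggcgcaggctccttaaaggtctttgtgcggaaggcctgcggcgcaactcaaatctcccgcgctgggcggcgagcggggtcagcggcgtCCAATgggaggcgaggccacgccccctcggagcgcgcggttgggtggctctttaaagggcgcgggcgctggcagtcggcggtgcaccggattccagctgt
Top2a and Ccnb2 carried CHR and CCAAT letters and no E2F letters, as did Bub1b. Mcm6 carried E2F and CCAAT letters and no CHR letters, and Rrm2 had 1 match each to E2F and CCAAT. A stretch from the 50 bases after the start site was looked up in GENCODE transcripts of the same gene. It was found for 30 of the 34 promoters, and Mcm6 was among the 4 without a match.

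The widest difference among the 36 livers was between single libraries, not between diets. In red 186, 34 of the 38 members with counts had their highest value, including 25 of the 29 tested, while 7.8% of all 14068 tested genes peaked there. In tangerine 192, 28 of the 38 members were among their 3 highest values, against 9.27% of all tested genes, and 27 of them were second. The 28 include members that failed the count filter, whereas the 9.27% covers only genes that passed it. Relative to each gene's median, the tested members had a median log2 ratio of 2.15 in red 186 and 1.02 in tangerine 192. The other 34 libraries lay between -0.42 and 0.43, with overlapping ranges of -0.42 to 0.27 on control, -0.19 to 0.43 on red and -0.40 to 0.32 on tangerine. Red 175 had the highest of these and was among the 3 highest for 12 members.

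**Figure D1:**
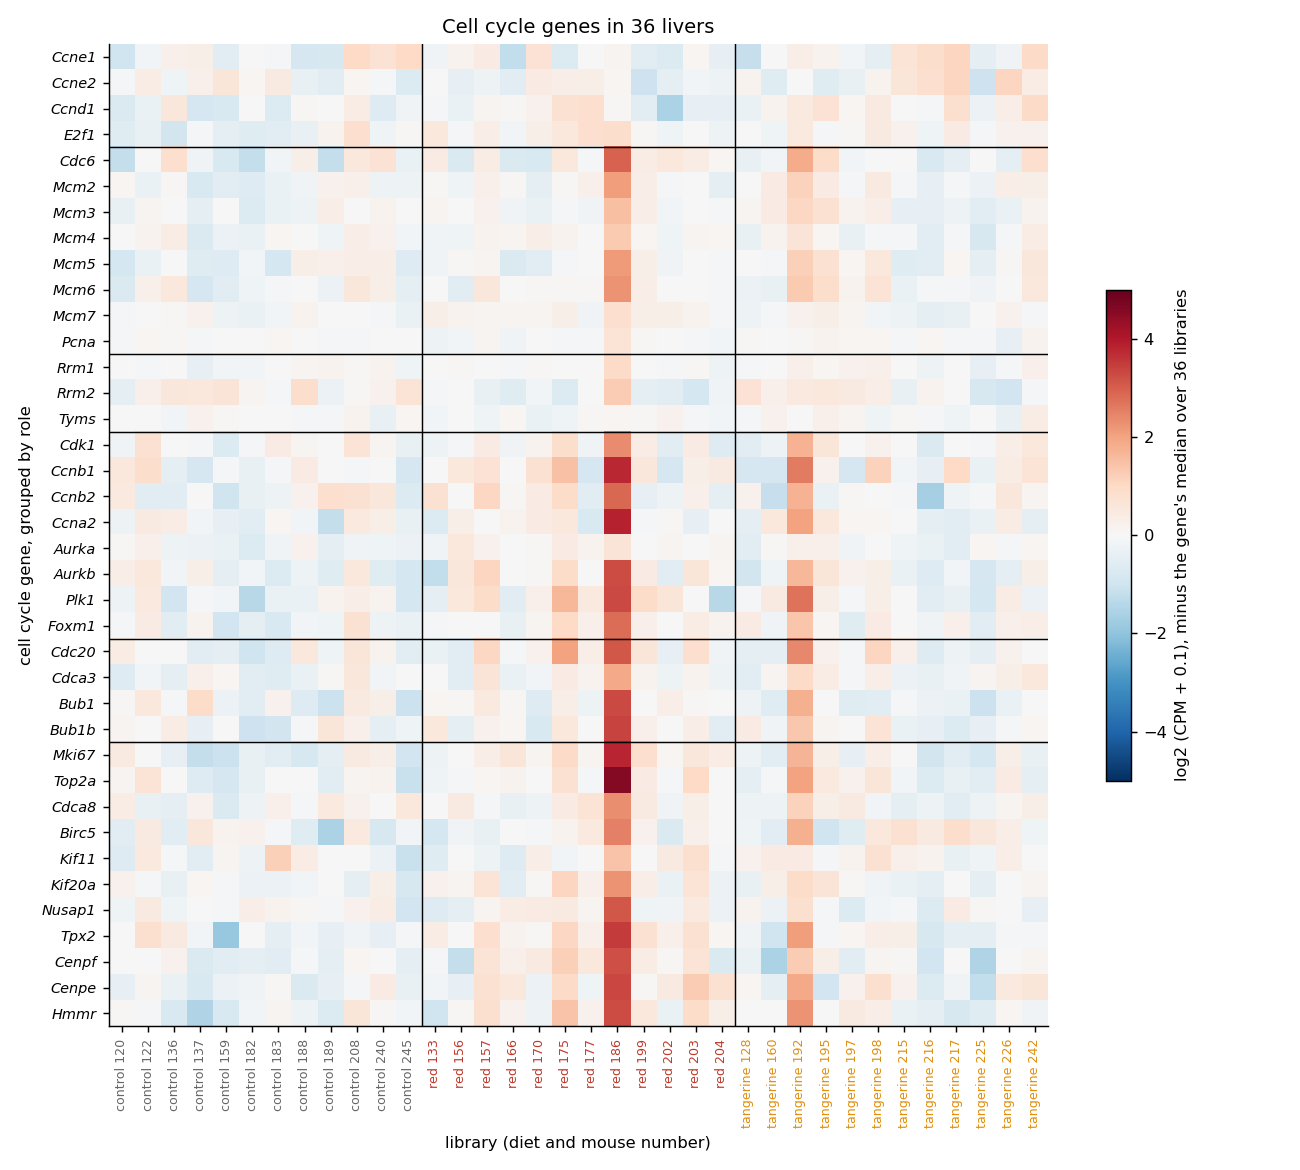
Level of the 38 cell cycle genes with counts (rows, grouped by role and separated by lines) in each of 36 libraries (columns, by diet), as log2 (CPM + 0.1) minus the gene's median over the libraries. Red 186 is the darkest column and tangerine 192 the next, and in red 186 the cyclins Ccne1, Ccne2 and Ccnd1 at the top stay near their medians.

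The excess in red 186 differed by role and was largest for the genes of mitosis. The 11 chromosome and spindle genes with counts were between 4.21 and 26.2 times the median of the other 35 libraries (median 12.1), and all 11 peaked in this library. Top2a, the topoisomerase that untangles replicated chromosomes (chromosome 11, 98992943 to 99024189, GRCm38), had 27.9 CPM in red 186, 4.64 CPM in tangerine 192 and at most 2.22 CPM in the other 34 libraries. Mki67, which coats mitotic chromosomes and encodes the Ki-67 proliferation antigen (chromosome 7, 135689784 to 135716361), had 22.1 CPM in red 186, 5.05 CPM in tangerine 192 and at most 3.001 CPM elsewhere. Both genes separated these 2 libraries from all the rest.

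The 8 mitotic entry genes were at a median of 11.1 times that level in red 186, from 1.60 times for Aurka, an Aurora kinase of the spindle poles, to 30.0 times for Ccnb1 (cyclin B1), which rested on 78 counts there and at most 27 in any other library. Ccna2, needed in DNA synthesis and at mitotic entry, had 7.16 CPM in red 186 and 1.92 CPM in tangerine 192, and no other library exceeded 0.627 CPM. Cdk1, the kinase that drives entry into mitosis, had 5.05 CPM in red 186, 3.21 CPM in tangerine 192 and at most 1.75 CPM elsewhere. The 4 genes grouped with the spindle checkpoint and its target, the anaphase-promoting complex, were 3.92 to 18.3 times the median, led by the checkpoint kinase Bub1. This group, called checkpoint genes below, also holds Cdca3, which had the lowest ratio of 3.92 times.

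Licensing and fork genes stood at a median of 3.64 times. Cdc6, which loads the helicase, reached 12.9 times on 55 counts, Mcm6 4.83 times and Mcm2 4.36 times, whereas Pcna reached 1.62 times. Of the nucleotide enzymes Rrm2 was 2.46 times and Rrm1 1.94 times the median, and Tyms, the thymidylate synthase, 1.08 times. The G1 genes had the lowest ratios. Ccnd1, Ccne1 and Ccne2 (cyclins D1, E1 and E2) were 1.06, 1.10 and 1.09 times their medians and none peaked in red 186, while E2f1 was 1.92 times its median and did. In tangerine 192 the medians were lower for 5 of the 6 roles, at 4.46 times for checkpoint genes (11.8 times in red 186), 4.21 times for mitotic entry, 3.48 times for chromosome and spindle genes, 2.19 times for licensing and fork genes and 1.22 times for nucleotide enzymes. Its G1 genes were at 1.39 times, against 1.10 times in red 186. In both libraries the 3 roles of mitosis had higher medians than licensing and fork genes, but the order within the 3 differed. These are single mice, so the values have no replicate error.

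**Figure D2:**
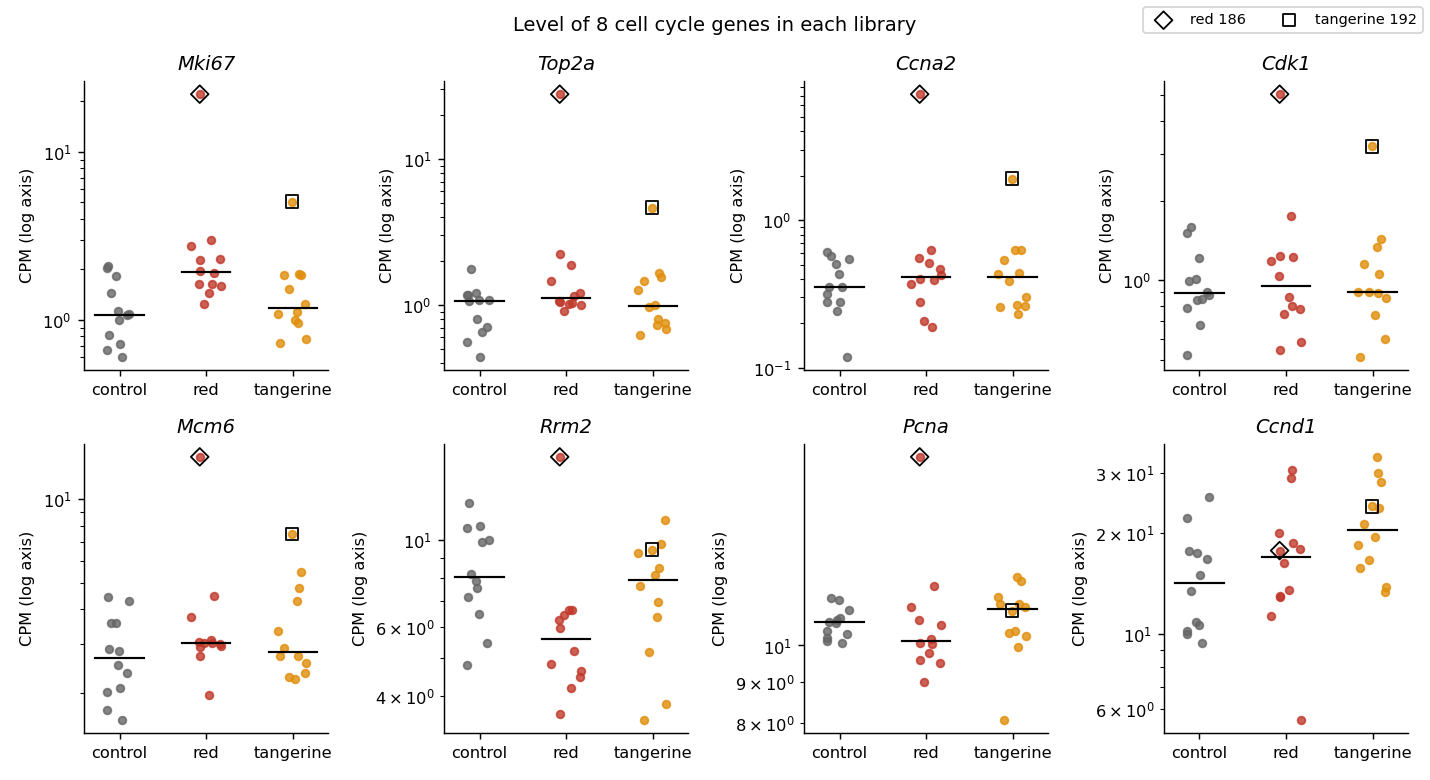
CPM (log axis) of 8 cell cycle genes in every library, by diet, with the diet median as a bar. The diamond is red 186 and the square tangerine 192, and for Mki67, Top2a, Ccna2, Cdk1 and Mcm6 they are the highest and the second highest points, whereas for Ccnd1 both lie within the other libraries.

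Markers of other cells also set these 2 livers apart, in different ways. All 12 T cell markers were highest in red 186, where they summed to 289 CPM against 4.12 to 11.9 CPM in the 34 libraries other than these 2, and 8.73 CPM in tangerine 192. Of the 8 thymocyte markers, 5 were highest in red 186 and the list summed to 168 CPM against at most 9.91 CPM. Dntt, the terminal transferase of immature lymphocytes, had 51.7 CPM in red 186 and at most 9.03 CPM elsewhere, and Cd8b1 31.8 CPM against 0.432 CPM. Rag1, Rag2 and Ptcra were at 0 in all 36 libraries and, as with Tk1, were not read. All 5 adipose markers were highest in red 186 as well (6.74 CPM against at most 0.406 CPM). So were 3 of 6 cholangiocyte markers (Krt7, Epcam and Cftr, the last on 5 counts), but not Krt19, Sox9 and Spp1. The 6 cholangiocyte markers summed to 30.6 CPM, inside the range of 11.6 to 49.5 CPM of the other 34. The B cell markers of red 186 summed to 55.7 CPM, inside the range of 10.7 to 100.4 CPM of the other 34. Ighm alone gave 48.5 CPM of that sum, and 3 of the 8 (Cd79a, Cd79b and Pax5) were highest in red 186. Its 4 plasma cell markers summed to 4.65 CPM against at most 2.24 CPM, with 2 of the 4 (Jchain and Igha) highest there.

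Tangerine 192 had none of the 12 T cell markers at its highest. Its 6 cholangiocyte markers summed to 111 CPM against 11.6 to 49.5 CPM in the other 34, which rested on Spp1 alone (107 CPM), with Cftr at 0 and Krt7 at 1 count. Its 9 neutrophil markers summed to 2.84 CPM against at most 1.49 CPM in the other 34. Only 2 of the 9 were highest there, S100a8 (27 counts) and S100a9 (32 counts), and 3 were at 0. The part of these cell types in the cell cycle values was not tested. In bulk RNA, more cells of a type and more RNA per cell cannot be told apart.

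**Figure D3:**
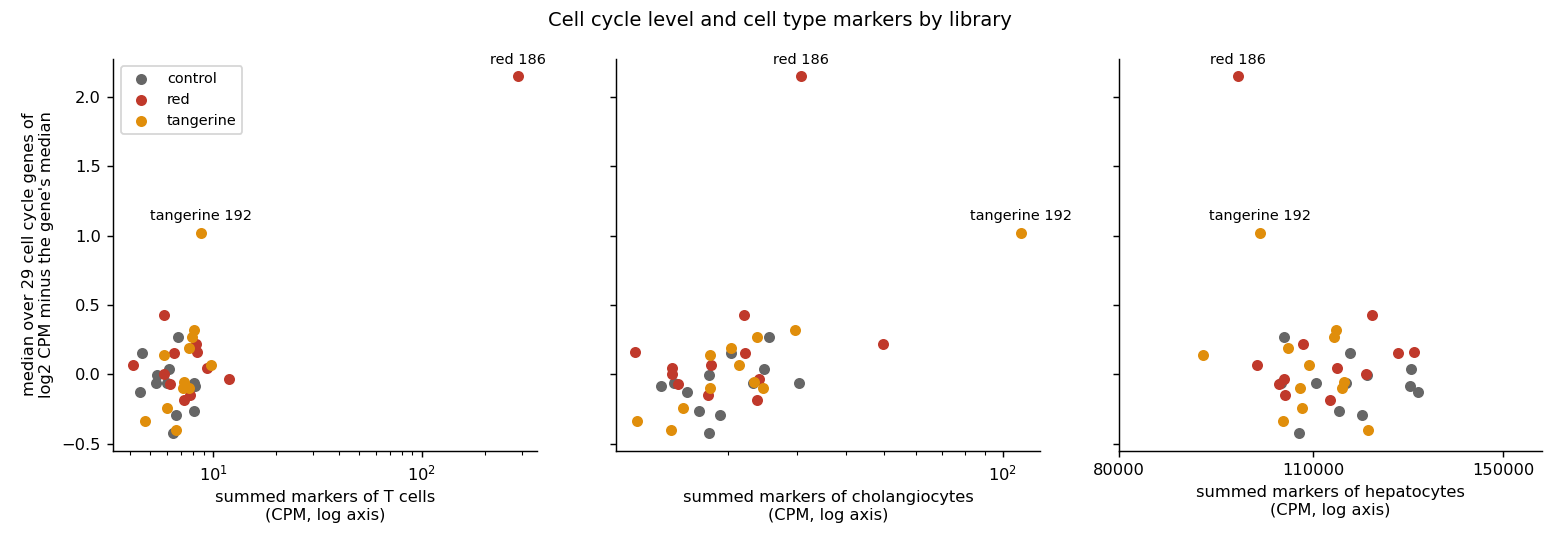
Median level of the 29 tested cell cycle genes in each library (y axis, log2 relative to each gene's median) against summed CPM of T cell, cholangiocyte and hepatocyte markers (x axes, log). Red 186 lies far to the right for T cells, tangerine 192 does so for cholangiocyte markers, and neither does for hepatocyte markers.

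The diets were compared to ask whether tomato powder, or its type, changed hepatic expression of these genes. Red against control, 15 members were higher and 1 lower at an unadjusted p under 0.05, but none of 29 passed the adjusted threshold of 0.05 (edgeR's quasi-likelihood test, Benjamini-Hochberg over all genes). Of all 14068 genes, 0.149% passed that threshold and 13.3% had an unadjusted p under 0.05 (6.67% higher, 6.63% lower). DESeq2 also called 0 members (1.17% of all genes), and limma-voom with sample weights called 6 (Mki67, Tpx2, Aurka, E2f1 and Mcm7 higher, Rrm2 lower), in a test that called 1482 of all genes (10.5%). The members' median log2 fold change was 0.50, with 25 of 29 above 0, against a median of -0.0047 and 48.5% above 0 over all genes. By role the median was 1.12 for checkpoint genes, 0.84 for chromosome and spindle genes, 0.83 for mitotic entry, 0.30 for licensing and fork, 0.0055 for G1 genes and -0.05 for nucleotide enzymes.

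The size of this median rested largely on red 186. Without that library it was 0.13, and 6 members were higher and 1 lower at an unadjusted p under 0.05, with none of 29 called (0.383% of 14099 genes were called and 13.4% had an unadjusted p under 0.05, 6.11% higher and 7.27% lower). In that fit 23 of 29 members were still above 0, against 48.2% of all genes. The order of the roles also changed, with medians of 0.38 for chromosome and spindle genes, 0.22 for mitotic entry and 0.17 for checkpoint genes. Licensing and fork genes were at 0.088, G1 genes at -0.011 and nucleotide enzymes at -0.061. Leaving out any of the other 35 libraries kept the median over all 29 between 0.46 and 0.59. For Top2a, values ran from 0.440 to 1.75 CPM on control (median 1.07) and from 0.913 to 27.9 CPM on red (median 1.11), so the medians were close and the ranges overlapped. Red 186 and 2 other red livers, at up to 2.22 CPM, lay above the highest control. Its log2 fold change was 1.85 ± 0.53 (SE, n = 12 per diet, edgeR adjusted p = 0.106) with red 186 and 0.38 ± 0.27 (SE, edgeR adjusted p = 0.580) without it. Ccna2 went from 1.35 to 0.07 and Nusap1, a spindle protein, from 0.81 to 0.02. Cdk1 went from 0.43 to -0.0080, a change of sign.

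**Figure D4:**
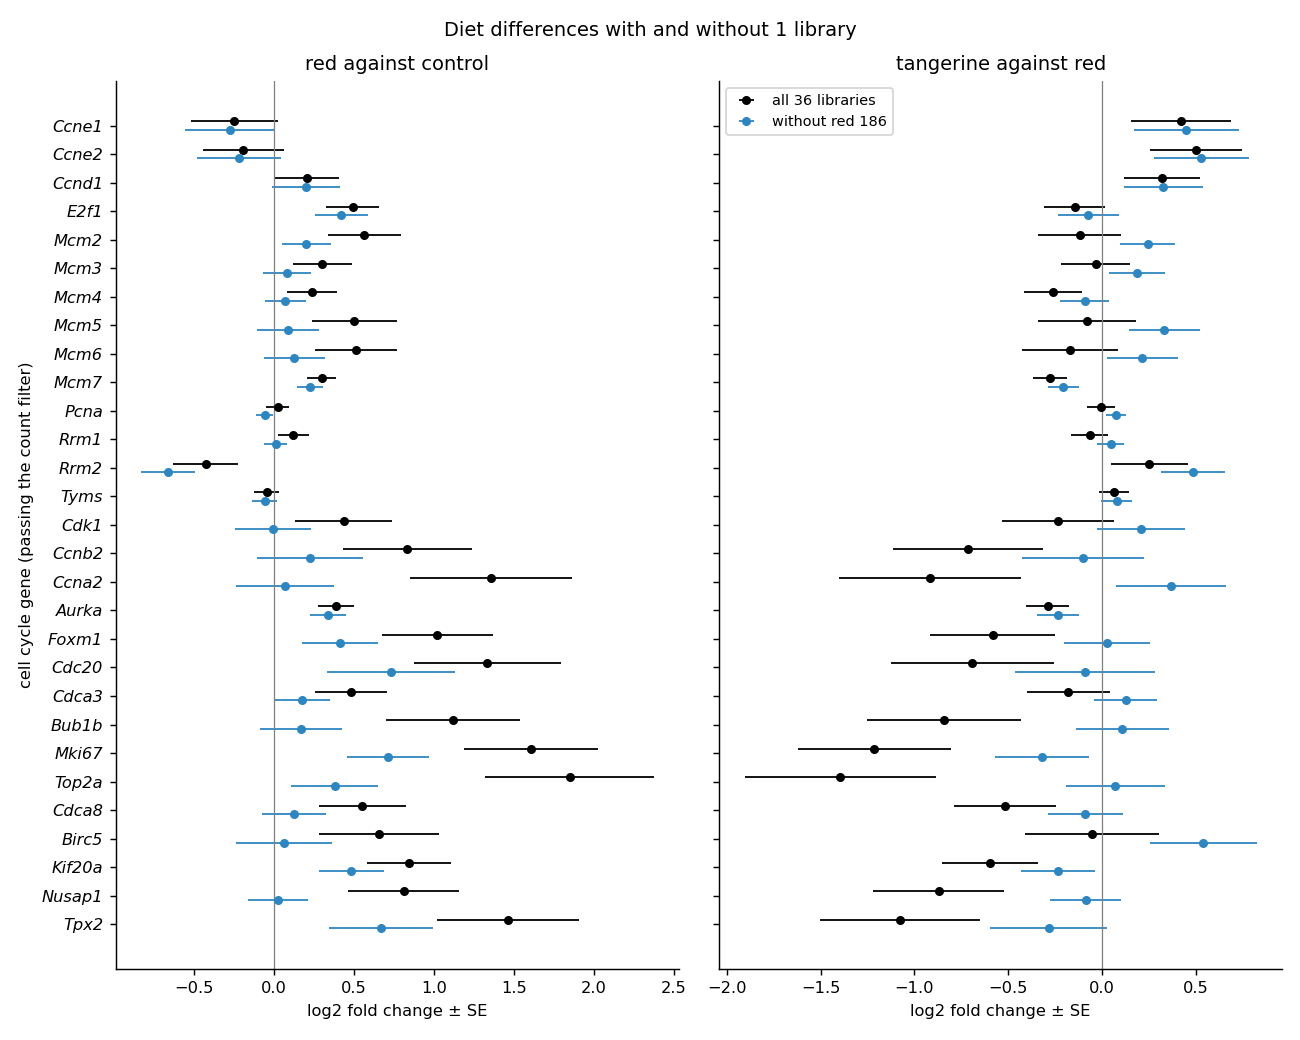
Log2 fold change ± SE from edgeR of the 29 tested cell cycle genes, red against control (left) and tangerine against red (right), with all 36 libraries in black and without red 186 in blue. Most blue points lie nearer 0 than the black ones, while Rrm2 moves away from 0 in both panels.

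The 6 members that stayed higher on red at an unadjusted p under 0.05 without red 186 were Mki67, E2f1, Mcm7, Aurka, Kif20a and Tpx2. Mki67 ranged from 0.600 to 2.08 CPM on control (median 1.07) and from 1.24 to 22.1 CPM on red (median 1.93), and all 12 red livers lay above the control median. Its log2 fold change was 1.61 ± 0.42 (SE, n = 12 per diet, edgeR adjusted p = 0.0750), and 0.71 ± 0.26 (SE, edgeR adjusted p = 0.200) without red 186, where the highest red value was 3.001 CPM. E2f1, the transcription factor that opens the replication programme, ranged from 0.849 to 3.18 CPM on control and from 1.42 to 3.20 CPM on red, again with all 12 red livers above the control median of 1.31 CPM. Its difference was 0.49 ± 0.17 with red 186 and 0.42 ± 0.16 without (SE, edgeR adjusted p = 0.170 and 0.245), so this library hardly moved it. Leaving out control 208, the control with 3.18 CPM, raised it to 0.65 (edgeR adjusted p = 0.0445). Mcm7 had medians of 8.71 CPM on control and 10.2 CPM on red, with 10 of 12 red livers above the control median, and a difference of 0.30 ± 0.09 (SE, edgeR adjusted p = 0.132). Aurka, Tpx2 and the kinesin Kif20a had log2 fold changes of 0.39, 1.46 and 0.84, and of 0.33, 0.67 and 0.48 without red 186. Overlapping exons of Cdc23 on the other strand cover 29.3% of the exon bases of Kif20a. The ranges of the diets overlapped for every one of these 6 genes.

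Rrm2 went the other way. Its values were 4.80 to 12.5 CPM on control (median 8.05) and 3.61 to 16.3 CPM on red (median 5.59), and the highest red value was again red 186. The other 11 red livers had at most 6.65 CPM, below the control median, and only controls 120, 189 and 183, at 4.80, 5.47 and 6.48 CPM, lay as low. The log2 fold change was -0.43 ± 0.20 (SE, n = 12 per diet, edgeR adjusted p = 0.358), and -0.66 ± 0.17 (SE, edgeR adjusted p = 0.0654) without red 186, the smallest adjusted p of any member in that fit. Rrm1, the partner subunit, differed by 0.12 with red 186 and 0.0078 without it.

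A clock gene is given beside these values. Dbp, an output of the circadian clock, ranged from 1.84 to 104.8 CPM in controls (median 72.5), from 3.64 to 57.6 CPM in red livers (median 15.01) and from 29.1 to 148 CPM in tangerine livers (median 68.7). With a score of 13 clock genes as covariate, the red against control median was 0.29, 2 members had an unadjusted p under 0.05 (E2f1 at 0.58 and Rrm2 at -0.56), and 0 were called. The shares of all genes in that fit are not given here, so these counts were not set against them. The part of the clock in these values was not tested in any other way.

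Tangerine against control, most members had a log2 fold change above 0, but the size of their median rested largely on tangerine 192. None of 29 was called (0.0142% of all genes were), and 2 had an unadjusted p under 0.05 in edgeR, against 5.47% of all genes, with 0 called by DESeq2 (0.0426% of all genes) and 0 by limma-voom (0.0142%). Without red 186, 5 had an unadjusted p under 0.05 (5.79% of all genes), the 2 and Mcm2, Mcm5 and Birc5, with the smallest for Mcm2 (log2 fold change 0.44 ± 0.15, SE, edgeR adjusted p = 0.574). The median log2 fold change was 0.28, with 26 of 29 above 0 (44.6% of all genes were), and the median was 0.07 when tangerine 192 was left out. Ccnd1, the cyclin that couples growth signals to G1 progression (chromosome 7, 144929931 to 144939925), had the smallest p with all 36 libraries. It ranged from 9.41 to 25.4 CPM in controls (median 14.2), from 5.58 to 30.7 CPM in red livers (median 17.0) and from 13.4 to 33.6 CPM in tangerine livers (median 20.4), with 10 of 12 tangerine livers above the control median. The difference was 0.53 ± 0.20 (SE, n = 12 per diet, edgeR adjusted p = 0.738), and overlapping exons of LTO1 on the other strand cover 23.4% of its exon bases. E2f1 was the other, at 0.35 ± 0.17 (SE, edgeR adjusted p = 0.890), with all 12 tangerine livers above the control median. Pcna differed by 0.02 ± 0.07 (SE), and its median was 10.7 CPM in controls, 10.1 CPM in red livers and 11.1 CPM in tangerine livers.

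Tangerine against red, 8 members were lower and 1 higher at an unadjusted p under 0.05 in edgeR, and none of 29 was called, whereas 1.71% of all genes were called and 15.1% had an unadjusted p under 0.05 (6.6% higher, 8.52% lower). DESeq2 called 0 members (2.78% of all genes) and limma-voom with sample weights 1 of 29 (Mcm7), in a test that called 5.2% of all genes. Without red 186, 4 members had an unadjusted p under 0.05 in edgeR (14.9% of all genes). The median log2 fold change was -0.23 with all libraries and 0.08 without red 186, so its sign turned with that library, and it was -0.06 without both red 186 and tangerine 192. Top2a was at -1.40 ± 0.51 (SE, n = 12 per diet, edgeR adjusted p = 0.165) and at 0.07 ± 0.26 (SE) without red 186. Mki67 was at -1.21 ± 0.41 (SE, edgeR adjusted p = 0.122) and at -0.32 ± 0.25 (SE) without it. Mcm7 kept its direction, at -0.28 ± 0.09 (SE, edgeR adjusted p = 0.113) and -0.21 ± 0.08 (SE) without red 186. When tangerine 192 alone was left out, Mki67 and Tpx2 passed the threshold (edgeR adjusted p = 0.0366 and 0.0355), in a comparison that still held red 186.

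**Figure D5:**
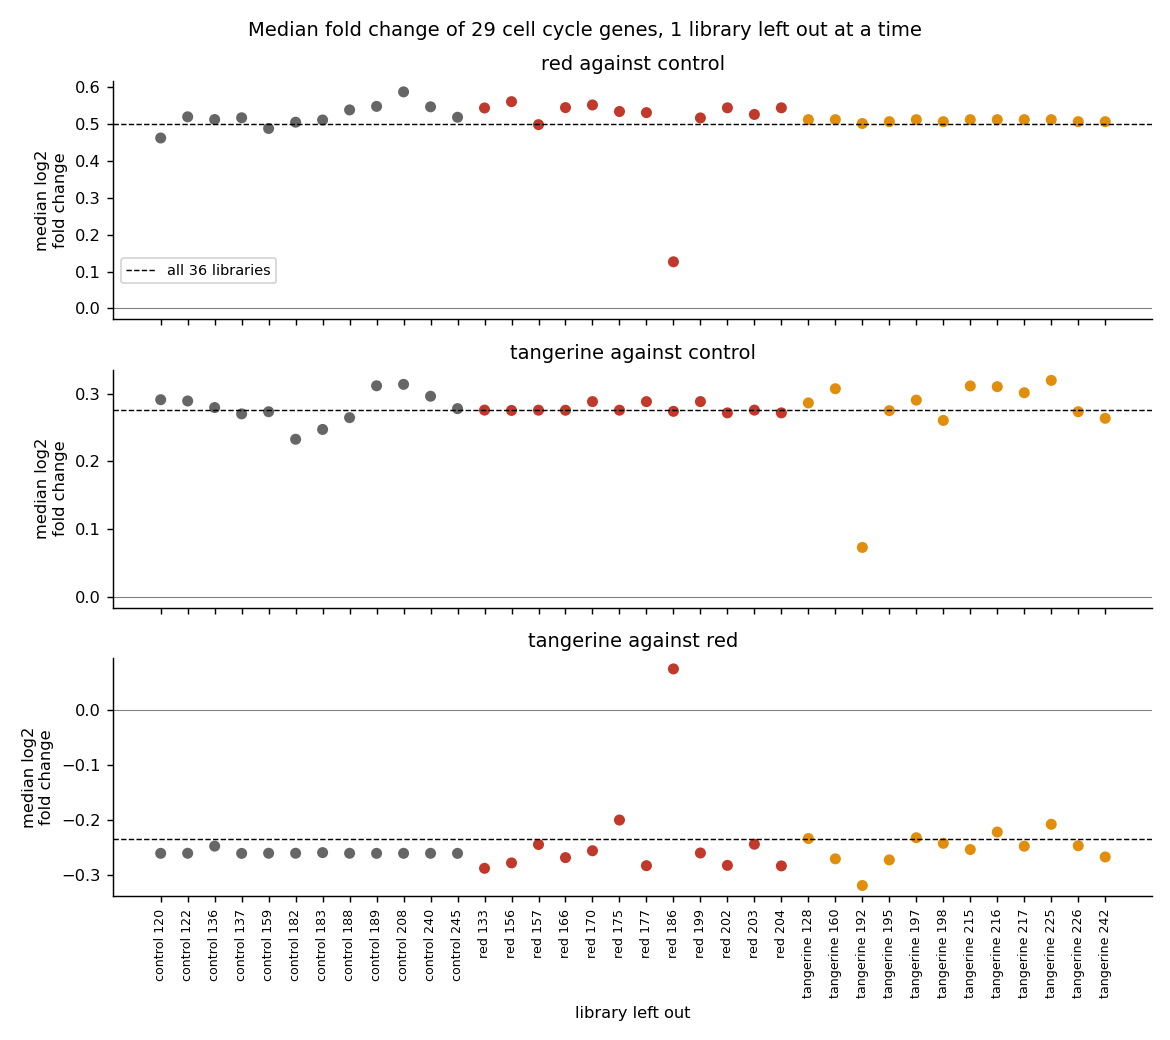
Median log2 fold change of the 29 tested cell cycle genes when 1 library is left out (x axis), for each pair of diets, with the value for all 36 libraries dashed. Red 186 shifts red against control from 0.50 to 0.13 and turns the sign of tangerine against red, and tangerine 192 shifts tangerine against control from 0.28 to 0.07.

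With both tomato diets pooled against control, 10 members had an unadjusted p under 0.05 in edgeR, all higher, and 0 of 29 were called, against 6.77% (3.05% higher) and 0.00711% of all genes. DESeq2 and limma-voom also called 0 (0.0853% and 0.242% of all genes). Without red 186, 6 were higher and 1 lower (Rrm2) at an unadjusted p under 0.05, against 7.41% of all genes (3.23% higher, 4.18% lower). The median was 0.39, and it was 0.22 without red 186 and 0.12 without both libraries. For any difference among the 3 diets, 14 members had an unadjusted p under 0.05 (13.9% of all genes) and 0 were called (1.18% of all genes) in edgeR, 0 in DESeq2 (2.72%) and 2 in limma-voom (7.9%), E2f1 and Mcm7. Without red 186 the unadjusted count was 7, against 14% of all genes. The pairs of diets share libraries, so their values are not independent.

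Other genes of the cycle were listed apart from the members. In 4 contrasts 0 of 25 tested other mitotic genes and 0 of 27 tested other replication genes were called by edgeR, and the same held for the G1 cyclins and inhibitors, the RB, E2F and DREAM genes, and the G2 brakes with p53 targets. Red against control, the unadjusted count was 10 higher and 1 lower among the other mitotic genes and 4 higher among the other replication genes, beside 6.67% higher and 6.63% lower of all genes. Without red 186 these counts were 4 higher and 1 lower (mitotic) and 1 higher and 1 lower (replication), beside 6.11% and 7.27%. Red 186 again held the highest value of 19 of the 25 mitotic and 21 of the 27 replication genes. The median of the mitotic list, red against control, was 0.51 with red 186 and 0.15 without it. Kif23, a kinesin of the cytokinetic midzone, went from 1.09 to 0.62 (edgeR adjusted p = 0.0975 and 0.195), and Uhrf1, which keeps DNA methylation through replication, from 1.80 to -0.04. E2f8, a repressor of E2F targets, differed by 0.58 on red, and by 0.57 without red 186. Cdkn1a, the p21 inhibitor of cyclin kinases, was at -1.72 ± 0.52 in tangerine against control (SE, n = 12 per diet, edgeR adjusted p = 0.587), at -0.87 without control 188 and at -1.04 with the clock score.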

How the data were processed

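Total RNA from 36 livers was made into directional libraries with a NEXTflex Rapid Directional kit, per the labels' protocols. The authors deposited raw read counts per Ensembl gene, not normalized. The submitters' processing notes name FastQC, Trimmomatic, edgeR and build GRCm38.p6, and the aligner, the counting program and its strand setting are not given in the sources used here. Symbols and positions came from GENCODE release M21 (GRCm38), and the 95 identifiers without a symbol held 0.00177% of counts.

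All genes were fitted together in edgeR 4.0.16 (filterByExpr with a minimum count of 10, a minimum total of 15 and a share of 0.7, TMM scaling, robust quasi-likelihood F test, Benjamini-Hochberg over 14068 genes, threshold 0.05). CPM are edgeR's depth-scaled counts, using TMM factors, and the SE is the absolute log2 fold change divided by the square root of F. Genes per role and marker lists were written by hand. The members and lists were chosen with earlier results of these data known, so no test over the list was made. Values over libraries were worked out for the 6 members with the smallest p in each directed contrast. They were also worked out for the members with the highest and lowest level per length, and for Mki67, Top2a, Ccnd1, Pcna and Cdk1. Of each other list, the 3 genes with the smallest p were taken. Only some of these values are printed, and other members named with values were chosen after these were seen. Libraries are named where at least 10 tested members peaked; tangerine 192 and red 175 were singled out after their values were seen. Alternatives were DESeq2 1.42.0 (size factors, and its test), limma-voom 3.58.1 with sample weights, other filters, covariates, only the groups compared, and leaving libraries out. The fit was tested on simulated data. P-values measure the spread between mice, and no such measure exists for the counts of a single library.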

Additional observations from a re-analysis of the deposited data

How the results depend on the processing

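No paired analysis was possible because no mouse number occurs in more than 1 diet. With 1 library left out at a time, the number of members called ran from 0 to 1 for red against control, 0 to 2 for tangerine against red and 0 to 3 for any difference, and stayed at 0 in the other 2 contrasts. The libraries that brought a call were control 208 (E2f1), tangerine 192 (Mki67, Tpx2 and, for any difference, Top2a) and control 120, red 170, red 177 and red 204 (Mki67 for any difference). The members' median ran from 0.13 to 0.59 (red against control), 0.073 to 0.32 (tangerine against control), -0.32 to 0.075 (tangerine against red) and 0.22 to 0.50 (both). The unadjusted counts ran from 7 to 20, 1 to 5, 4 to 15 and 7 to 15 in that order, and from 7 to 16 for any difference. Without red 186 they were 7 (red against control), 4 (tangerine against red), 7 (any difference) and 5 (tangerine against control). The shares of all genes there were 13.4%, 14.9%, 14% and 5.79% in that order. Without tangerine 192 the count was 15 (tangerine against red), and leaving out any 1 of 14 libraries gave 1 in place of 2 (tangerine against control). With libraries other than red 186 left out, the shares of all genes are not given here. Those counts, called or unadjusted, were therefore not read as particular to the members.

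Limma-voom with sample weights called 6, 1 and 2 members (red against control, tangerine against red, any difference), with medians of 0.27 and -0.043 in the first 2, and gave red 186 a weight of 0.422. A mean log2 CPM of at least 1 left 13 members, called 1 for any difference and gave a median of 0.30 red against control. With the clock score the medians were 0.29 and -0.013 (red against control, tangerine against red), and the unadjusted counts fell from 16 to 2 and from 9 to 0. These counts, and the 1 call at a mean log2 CPM of at least 1, have no share of all genes beside them. Neither the fall nor that call was read as particular to the members. Without red 186, which was both the library with the most T cell and thymocyte markers and the one with the highest member median, the medians were 0.13 and 0.075, and without red 186 and tangerine 216 they were 0.13 and 0.089. Without red 186 and tangerine 192, a setting chosen after seeing the data, they were 0.13 red against control, 0.073 tangerine against control and 0.12 for both.

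Signs turned for Cdk1 red against control (-0.0080 in each setting without red 186, -0.0079 without red 186 and tangerine 192), Pcna red against control (-0.060 in each setting without red 186, -0.041 with limma-voom, -0.027 with the clock score), Uhrf1 red against control (-0.040 without red 186 alone or with tangerine 216, -0.039 without red 186 and tangerine 192, -0.033 in DESeq2, -0.11 in limma-voom), Top2a tangerine against red (0.072 without red 186, 0.14 without red 186 and tangerine 216, 0.10 in DESeq2) and Ccne2 tangerine against red (-0.19 with the clock score). With 1 library left out, the first 4 ran from -0.0080 to 0.52 (Cdk1), -0.060 to 0.042 (Pcna), -0.040 to 1.91 (Uhrf1) and -1.76 to 0.072 (Top2a). The causes were not tested. The 11 members under the count filter had at most 7 libraries at 0 apart from Tk1 and Prc1, and differences between diets in them were not tested here.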
